A study of Rattus norvegicus with 20 samples.

Results

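The 8 genes described here, Kcnj10, Glul, Gja1, Apoe, Slc1a3, Sox2, Gfap, and Cdh19, are markers of satellite glia, the cells that wrap the bodies of sensory neurons in the dorsal root ganglion (DRG). They were taken by symbol from a table of 39747 genes, all 8 were found, and all 8 passed the filter on low counts in every model. Bulk RNA sequencing covered 20 DRG libraries from 14 young adult female Sprague-Dawley rats, labelled wild type, which received a soy oil diet (SOD) or a fish oil diet (FOD) enriched in omega-3 fatty acids for 4 weeks before surgery and afterwards until collection. For chronic constriction injury (CCI) the left sciatic nerve was loosely ligated with chromic gut, whereas in sham rats (CT) it was only exposed. The left DRG of sham rats gave 4 SOD-CT and 3 FOD-CT libraries, that of ligated rats 3 SOD-CCI and 4 FOD-CCI libraries, and the right (contralateral) DRG of the same CCI rats gave 3 SOD-CCI and 3 FOD-CCI libraries. Each rat was treated by the study as a separate unit, all rats were female and perfused with buffered saline, and the sources used here do not give the ganglion levels or the number of ganglia behind a library. The DRG were collected a week after surgery.

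Satellite glia keep the surroundings of the neuron steady: they take up potassium and glutamate, they are joined to each other by gap junctions, and they are known to raise their intermediate filament GFAP when the nerve is injured. Most of their marker genes are shared with astrocytes, their counterparts in the spinal cord, whereas Cdh19 belongs to the glia of peripheral nerves. In whole ganglia a lower level of such a gene can come from fewer cells or from less RNA per cell, and these cannot be told apart.

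Total counts ran from 22547190 to 54437581 per library, with a median of 29051399, and the smallest count of any of the 8 genes was 65, for Kcnj10 in SOD-CT replicate 1. Counts scaled to a common library total (CPM) are used below unless another scale is named. The first replicates of contralateral FOD-CCI and FOD-CCI, both from 1 rat, and of FOD-CT carried spinal cord transcripts. Their summed CPM over 6 spinal cord astrocyte genes (Aqp4, Agt, Slc4a4, and others) was 1532 to 3142, against 27.7 to 117 in the other 17 libraries. Slc4a4 was also present in the 17, with a median of 39.8 CPM and up to 61.4, against 66.3 to 131 in the 3. Over 7 oligodendrocyte genes the sums were 1438 to 1931 against 6.1 to 43.9, and Opalin, Olig1, and Olig2, which define that cell type, had a median of 0 in the 17. Over 5 genes of spinal cord neurons the sums were 937 to 1142 against 3.51 to 63.4. The 8 sensory neuron genes gave 2672 to 9057 in the 3 libraries and 3494 to 14738 in the 17. Of these genes, Isl1 (0 to 13.1 CPM in the 3 against 17.7 to 42.3 in the 17) lay below all 17. So did Avil (5.01 to 194 against 197 to 745), Pou4f1 (16.6 to 61.1 against 62.8 to 187), and Scn9a (7.63 to 129 against 188 to 436). Prph, Tubb3, Uchl1, and Snap25 had ranges that overlapped with the 17. SOD-CT replicate 1 stood apart in another way, with 88124 CPM over 7 skeletal muscle genes, and the next highest sum was 18382 in FOD-CT replicate 2. All 8 genes had counts in all 20 libraries. The counts of the 8 genes called by edgeR are given with and without the 3 libraries, the DESeq2 counts only with them, and the log2FC of the other gene lists only without them.

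The 250 bases before the start sites of the 8 genes were read from RefSeq on the rat build GRCr8, which lists all 8 genes with 1 to 3 starts each. The windows of Gfap, Slc1a3, and Kcnj10 are shown 5′ to 3′. Without the 3 libraries with spinal cord transcripts, Gfap was the only gene of the 8 whose levels separated ligated from other DRG. Slc1a3 and Kcnj10 share a short motif, which is in capitals.
Gfap (chr10:88361662-88361911, minus strand): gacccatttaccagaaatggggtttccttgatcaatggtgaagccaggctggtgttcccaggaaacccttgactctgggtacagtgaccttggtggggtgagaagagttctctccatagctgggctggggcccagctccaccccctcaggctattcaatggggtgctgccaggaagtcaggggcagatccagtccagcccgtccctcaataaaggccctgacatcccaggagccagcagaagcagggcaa
Slc1a3 (chr2:59557809-59558058, minus strand): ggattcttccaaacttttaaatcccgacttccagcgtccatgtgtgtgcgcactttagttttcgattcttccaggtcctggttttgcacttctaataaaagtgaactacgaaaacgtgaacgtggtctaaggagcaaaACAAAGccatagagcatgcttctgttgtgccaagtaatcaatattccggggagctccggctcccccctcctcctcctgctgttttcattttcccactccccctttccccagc
Kcnj10 (chr13:87334260-87334509, plus strand): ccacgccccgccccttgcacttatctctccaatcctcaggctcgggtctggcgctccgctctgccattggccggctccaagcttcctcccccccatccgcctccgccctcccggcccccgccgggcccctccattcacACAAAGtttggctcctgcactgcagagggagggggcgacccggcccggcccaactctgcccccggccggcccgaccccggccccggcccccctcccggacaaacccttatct

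Both strands were searched for ACAAAG and ACAATG, core letters known to be bound by SOX factors, and for TTCNNNGAA, core letters bound by STAT factors. ACAAAG was found in 2 of the 8 genes, Slc1a3 and Kcnj10, in both at 112 to 107 bases before the start shown. It is present in 16.3% of all 33469 windows of this length. Shares of windows are not shares of genes, since a gene with several starts counted once if any of its windows matched. ACAATG, present in 11.1% of all windows, and TTCNNNGAA, present in 7.67%, were found in none of the 8 genes, and no matches overlapped. These matches describe letters in a window and not binding.

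Per gene length, Apoe stood far above the other genes. The median deposited FPKM (fragments scaled to gene length and library size) over the 17 libraries was 2730 for Apoe, 115 for Glul, 51.1 for Cdh19, 21.0 for Kcnj10, 14.3 for Gja1, 10.8 for Sox2, 8.18 for Gfap, and 6.83 for Slc1a3. The first 3 steps of this order held in 17 of 17 libraries, Kcnj10 was above Gja1 in 14 of 17, and Gja1 was above Sox2 in 15 of 17. Sox2, Gfap, and Slc1a3 were not separated, since each step between them held in 10 of 17 libraries. Apoe alone made up 69.0% to 90.1% of the summed CPM of the 8 genes in the 17 libraries and 46.4% to 61.9% in the 3 libraries with spinal cord transcripts.

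Kcnj10 encodes Kir4.1, the inwardly rectifying channel through which satellite glia take up potassium. Its level was 2.85, 34.4, 31.7, and 11.9 CPM in SOD-CT and 41.2, 33.1, and 27.1 in SOD-CCI. In FOD-CT it was 64.3, 28.4, and 33.7, and in FOD-CCI 54.7, 27.7, 30.4, and 31.3. In contralateral DRG it was 32.5, 45.6, and 44.1 in SOD-CCI rats and 79.9, 38.1, and 39.4 in FOD-CCI rats. The first value of each FOD group is the library with spinal cord transcripts, and these 3 values were above all 17 others, with medians 1.98-fold apart. Without them the ranges of all 4 left DRG groups overlapped. SOD-CT then had the widest spread, 20.2 ± 15.3 CPM (SD, n = 4), with low values in replicates 1 and 4. Muscle genes summed to 88124 and 4720 CPM in those replicates. In FOD-CT replicate 2 they summed to 18382 CPM, and Kcnj10 was at 28.4 CPM. The part of muscle tissue in the Kcnj10 values was not tested.

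Glul encodes glutamine synthetase, which turns glutamate into glutamine, and Slc1a3 encodes the glutamate transporter GLAST. Glul was at 402.6, 249.0, 340.6, and 405.2 CPM in SOD-CT, at 278.5, 344.1, and 314.4 in SOD-CCI, and at 251.5, 322.3, and 287.0 in the contralateral DRG of SOD-CCI rats. Under the fish oil diet Glul was at 1169.6, 253.9, and 279.1 in FOD-CT, at 1098.0, 344.3, 290.6, and 495.0 in FOD-CCI, and at 1345.6, 281.7, and 356.1 in contralateral DRG. Outside the 3 libraries with spinal cord transcripts, Glul lay between 249.0 and 495.0 CPM, and its coefficient of variation over the 17 libraries, 20.2%, was the smallest of the 8. Slc1a3 was at 13.7, 29.2, 35.7, and 32.4 CPM in SOD-CT, at 26.1, 23.0, and 25.1 in SOD-CCI, and at 33.5, 20.2, and 26.9 in contralateral DRG. With fish oil Slc1a3 was at 295.0, 28.8, and 28.4 in FOD-CT, at 139.1, 22.9, 18.6, and 37.2 in FOD-CCI, and at 380.4, 36.0, and 43.7 in contralateral DRG. The 3 libraries with spinal cord transcripts held the highest values of both genes, with medians 3.72-fold (Glul) and 10.4-fold (Slc1a3) those of the 17 others.

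Gja1 encodes connexin 43, a channel protein of glial gap junctions. It was at 11.3, 46.4, 60.2, and 40.2 CPM in SOD-CT, at 61.8, 59.9, and 40.8 in SOD-CCI, and at 52.8, 43.9, and 44.997 in the contralateral DRG of SOD-CCI rats. Fish oil libraries had Gja1 at 460.3, 46.5, and 43.1 in FOD-CT, at 319.2, 44.9, 44.8, and 76.8 in FOD-CCI, and at 577.1, 45.7, and 58.3 in contralateral DRG. The low value in SOD-CT replicate 1 and the 3 values of the libraries with spinal cord transcripts, 10.1-fold higher by their medians, were the ends of the range, and the other 16 libraries lay between 40.2 and 76.8.

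Apoe encodes apolipoprotein E, the lipid carrier that glia secrete. It was at 1152.8, 3981.4, 3357.1, and 2611.6 CPM in SOD-CT, at 4448.8, 3751.7, and 3574.3 in SOD-CCI, and at 2459.6, 3661.9, and 3952.3 in the contralateral DRG of SOD-CCI rats. With fish oil Apoe was at 4068.6, 4496.2, and 3568.3 in FOD-CT, at 3291.4, 4514.6, 3706.8, and 4253.4 in FOD-CCI, and at 3012.9, 4772.5, and 4140.4 in contralateral DRG. Apoe in the 3 libraries with spinal cord transcripts lay inside the range of the others, at 0.877-fold by the medians.

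Sox2 encodes a transcription factor kept on in satellite glia, and Cdh19 encodes a cadherin of peripheral glia. Sox2 was at 15.8, 22.7, 20.4, and 16.5 CPM in SOD-CT, at 41.8, 30.4, and 22.2 in SOD-CCI, and at 31.3, 35.5, and 24.1 in the contralateral DRG of SOD-CCI rats. Fish oil libraries had Sox2 at 96.2, 28.3, and 21.8 in FOD-CT, at 54.4, 32.7, 31.4, and 26.6 in FOD-CCI, and at 94.6, 19.0, and 19.3 in contralateral DRG. Sox2 in the 3 libraries with spinal cord transcripts was again above all 17 others (3.92-fold by the medians). Cdh19 was at 58.3, 128.1, 152.9, and 153.4 CPM in SOD-CT, at 163.0, 181.8, and 175.6 in SOD-CCI, and at 117.8, 185.6, and 117.3 in contralateral DRG. With fish oil Cdh19 was at 50.9, 101.1, and 105.5 in FOD-CT, at 40.2, 81.7, 115.6, and 180.1 in FOD-CCI, and at 42.2, 84.0, and 71.3 in contralateral DRG. Cdh19 was the only gene of the 8 that lay below all 17 other libraries in the 3 with spinal cord transcripts, at 0.358-fold by the medians.

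Gfap encodes glial fibrillary acidic protein, the intermediate filament of reactive glia. It was at 13.0, 9.99, 23.7, and 32.3 CPM in SOD-CT, at 40.2, 41.3, and 48.2 in SOD-CCI, and at 4.09, 22.1, and 15.3 in the contralateral DRG of SOD-CCI rats. With fish oil Gfap was at 1186.6, 22.7, and 15.8 in FOD-CT, at 320.3, 65.5, 64.9, and 63.5 in FOD-CCI, and at 965.4, 20.5, and 12.1 in contralateral DRG. The 3 libraries with spinal cord transcripts stood 42.4-fold above the others by their medians, the widest gap of the 8 genes. Among the 17 other libraries, the 6 ligated DRG held 40.2 to 65.5 CPM and the 11 sham and contralateral DRG 4.09 to 32.3. The 6 were above the 11 in CPM, in CPM on normalized (TMM) library sizes, and in deposited FPKM, and none of the other 7 genes separated the libraries in this way. Of 14087 genes, 1.34% did so in CPM.

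**Figure D1:**
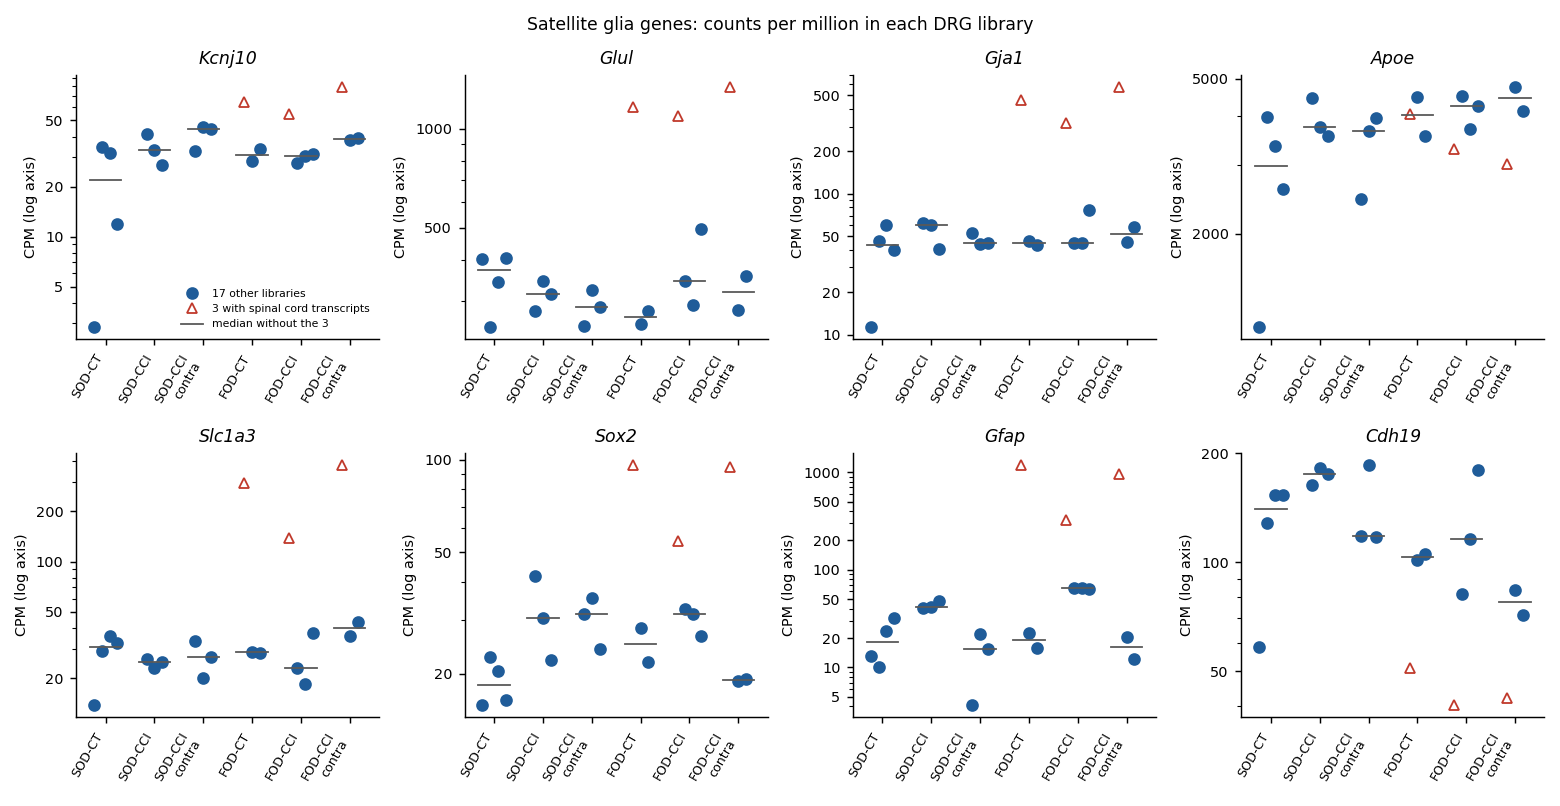
CPM (log axes, ranges differ between panels) of the 8 genes in each of the 20 libraries by group; circles are the 17 libraries without spinal cord transcripts, open triangles the 3 with them, and lines the group medians without the 3. The triangles sit above every circle for 6 genes, among them Gfap at 320 to 1187 CPM, inside the circles for Apoe, and below them for Cdh19 at 40.2 to 50.9 CPM.

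The summed astrocyte genes and the 8 genes were compared library by library. Of the 3 libraries, FOD-CCI replicate 1 had the lowest astrocyte sum (1532 CPM) and also the lowest Kcnj10, Glul, Gja1, Slc1a3, Sox2, and Gfap. It had the lowest Cdh19 of the 3 as well (40.2 CPM, against 42.2 and 50.9), although Cdh19 was lower in the 3 than in the 17, and its Apoe (3291.4 CPM) lay between the other two. Contralateral FOD-CCI replicate 1 had the highest astrocyte sum (3142 CPM, against 2589 in FOD-CT replicate 1). It also had the highest Kcnj10, Glul, Gja1, and Slc1a3. FOD-CT replicate 1 had the highest Sox2 (96.2 against 94.6 CPM) and the highest Gfap (1186.6 against 965.4). The astrocyte list has no gene in common with the 8, and its part in their levels was not tested.

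**Figure D2:**
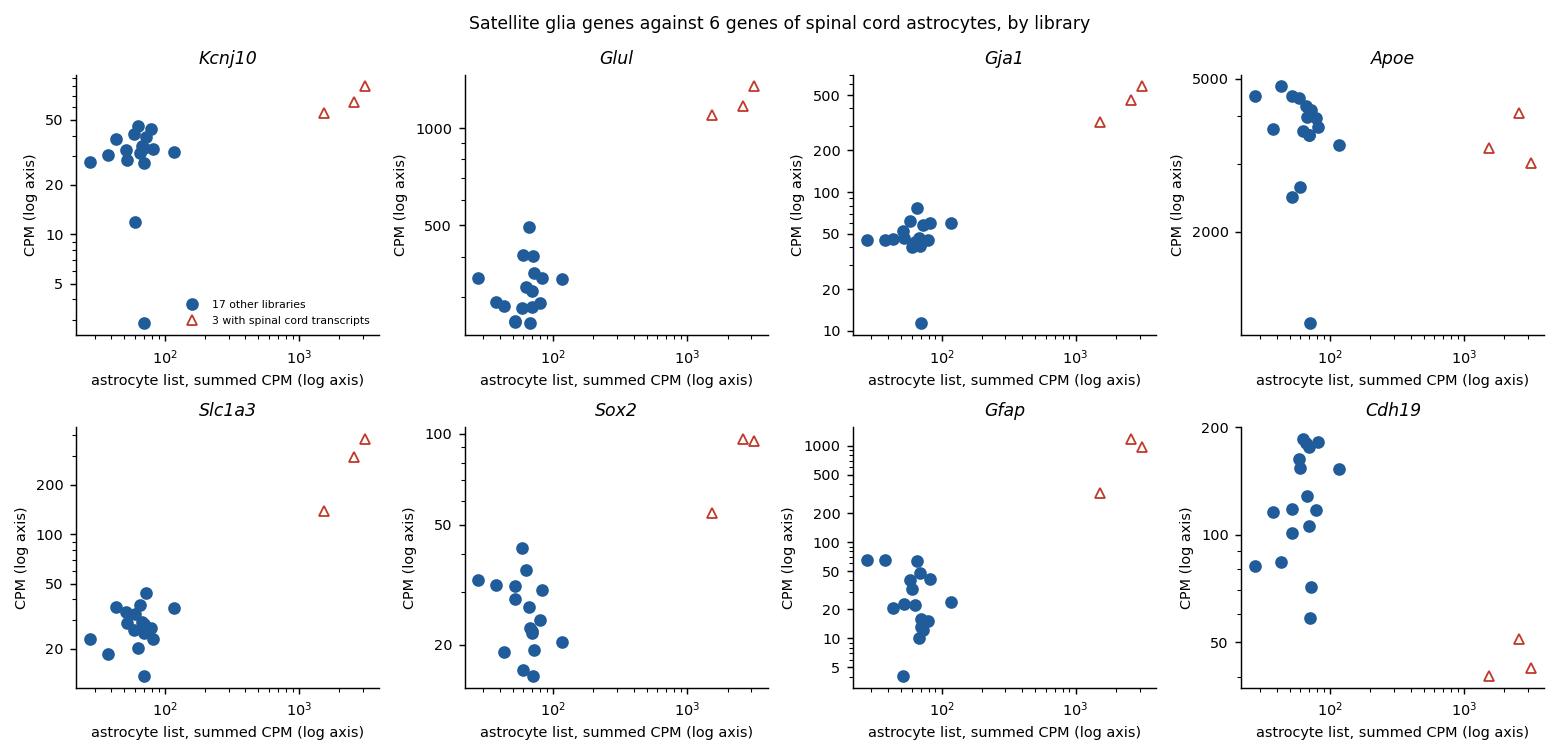
CPM of each of the 8 genes (vertical) against the summed CPM of 6 spinal cord astrocyte genes (horizontal) in the 20 libraries, all axes logarithmic. The 17 circles lie between 27.7 and 117 summed CPM and the 3 triangles between 1532 and 3142, with a wide empty span between them.

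The effect of injury under the soy oil diet was asked by comparing SOD-CCI with SOD-CT. Gfap was higher in all 3 SOD-CCI libraries than in any SOD-CT library (43.2 ± 4.32 against 19.8 ± 10.2 CPM, SD, n = 3 and 4), and so was Cdh19 (173 ± 9.59 against 123 ± 44.8). CPM ranges that did not overlap in this direction were found for 11.8% of all genes. A gene was called where edgeR's quasi-likelihood test gave an adjusted p no higher than 0.1 with a 1.2-fold or larger change. By this rule none of the 8 genes and none of 14484 genes (0%) was called, although 2006 genes and 0 of the 8 had an unadjusted p under 0.05. DESeq2, run as an alternative, called 594 genes and none of the 8. The log2FC was 0.96 (SE 1.06) for Gfap, 0.71 (SE 0.51) for Kcnj10, 0.56 (SE 0.42) for Sox2, 0.40 (SE 0.28) for Apoe, and −0.42 (SE 0.54) for Glul, with adjusted p values of 0.517 to 0.889 over the 8.

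Without FOD-CT and FOD-CCI replicate 1, which share the estimate of the spread with this comparison but are not compared in it, the Gfap log2FC was the same 0.96 with an SE of 0.33 (edgeR adjusted p = 0.236). Sox2 then stood at 0.56 (SE 0.25, edgeR adjusted p = 0.310). Neither was called, while 87 of 14688 genes (0.592%) were. Without the muscle-rich SOD-CT replicate 1 as well, the values were 0.92 (SE 0.35) for Gfap and 0.64 (SE 0.25) for Sox2. Several genes moved towards no change: Kcnj10 from 0.71 to 0.37, Apoe from 0.40 to 0.22, and Gja1 from 0.38 to 0.12. Cdh19 moved from 0.37 to 0.22 and Glul from −0.41 to −0.13, whereas Slc1a3 moved from −0.29 to −0.42.

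The same question under the fish oil diet, FOD-CCI against FOD-CT, gave opposite directions for Gfap with and without the libraries that carry spinal cord transcripts. With all libraries, Gfap averaged 129 ± 128 CPM in FOD-CCI (SD, n = 4) and 408 ± 674 in FOD-CT (n = 3), a log2FC of −1.54 (SE 1.06, edgeR adjusted p = 1.00). Without replicate 1 of both groups, it averaged 64.6 ± 1.02 CPM in FOD-CCI (n = 3) and 19.3 ± 4.93 in FOD-CT (n = 2), a log2FC of 1.72 (SE 0.42, edgeR adjusted p = 0.228). No gene was called in either case (0% of 14484 and 0% of 14688), with 654 and 1180 genes at an unadjusted p under 0.05, and DESeq2 called 21 genes with all libraries, none of them among the 8. Leaving out the muscle-rich SOD-CT replicate 1 too, an alternative chosen after the data were seen, gave the same Gfap log2FC of 1.72 (SE 0.41), which was then called (edgeR adjusted p = 0.0632), together with 526 of 15177 genes (3.47%). Over all alternatives the adjusted p ran from 0.0632 to 1.00. Leaving out FOD-CT replicate 1 alone turned the log2FC to 2.71, and leaving out FOD-CCI replicate 1 alone gave −2.52.

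The other 7 genes were not called in any of these fits. With all libraries 6 of the 8 log2FC were negative, down to −0.9998 (SE 0.75) for Slc1a3 and −0.49 (SE 0.80) for Gja1, and without the 2 libraries 6 of 8 were positive, with 0.49 (SE 0.36) for Glul and 0.25 (SE 0.30) for Sox2. CPM ranges did not overlap upwards for 0 of the 8 with all libraries, beside 2.05% of all genes, and for Glul and Gfap without the 2, beside 15.1% of all genes.

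**Figure D3:**
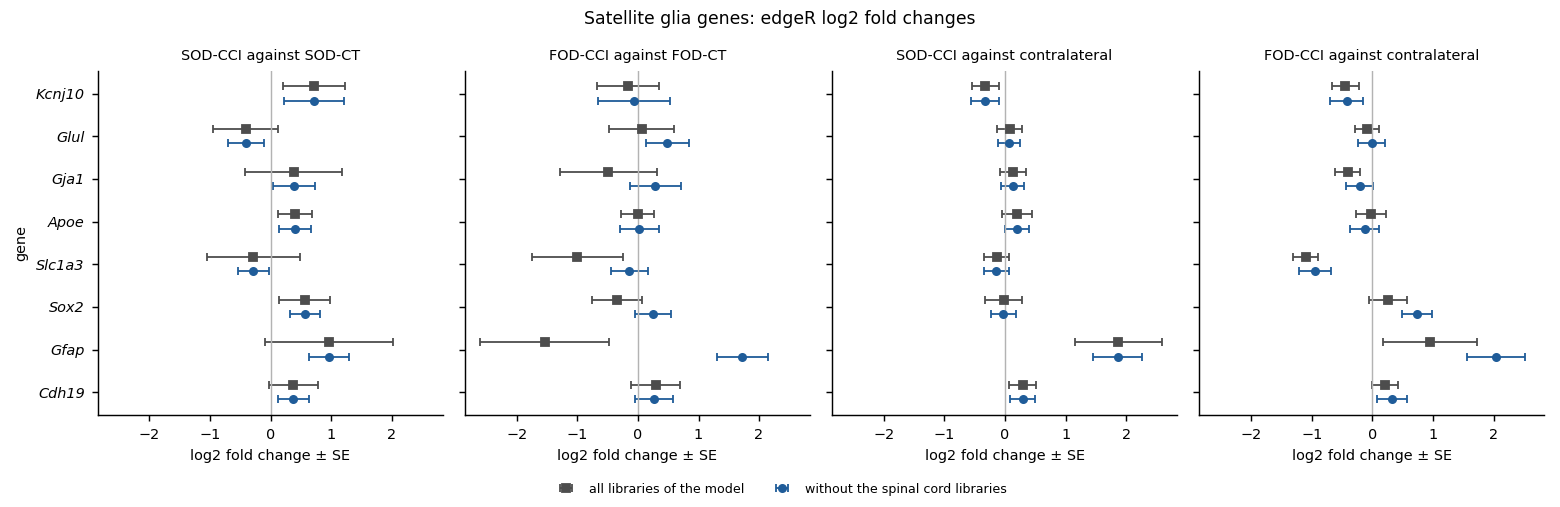
edgeR log2FC with SE (horizontal) of the 8 genes (vertical) in 4 comparisons; squares use all libraries of the model and circles leave out those with spinal cord transcripts. Gfap in FOD-CCI against FOD-CT moves from −1.54 to 1.72, and its SE in SOD-CCI against SOD-CT shrinks from 1.06 to 0.33.

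Diet was examined in ligated and in sham DRG. In sham DRG (FOD-CT against SOD-CT) 7 of the 8 genes had positive log2FC with all libraries, led by Gfap at 4.13 (SE 1.15), Gja1 at 2.09 (SE 0.81), Slc1a3 at 1.91 (SE 0.76), and Sox2 at 1.17 (SE 0.42), 4 genes with an unadjusted p under 0.05, and the median of the 8 was 1.10 beside −0.01 over all genes. None was called (edgeR adjusted p of 0.965 to 0.966 over the 8), nor was any other gene (0% of 14484, 491 at an unadjusted p under 0.05, and 0 by DESeq2). Without the libraries with spinal cord transcripts the log2FC of Gfap was −0.11 (SE 0.38), of Gja1 0.19 (SE 0.39), of Slc1a3 0.00 (SE 0.29), and of Sox2 0.32 (SE 0.28), with a median of 0.10 over the 8 (0% of genes called, 238 at an unadjusted p under 0.05). Leaving out FOD-CT replicate 1 alone also gave −0.11 for Gfap.

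In ligated DRG (FOD-CCI against SOD-CCI) 7 of the 8 log2FC were positive with all libraries and their median was 0.58, with 1.63 (SE 1.12) for Gfap, 1.22 (SE 0.83) for Gja1, and 1.19 (SE 0.79) for Slc1a3. Without FOD-CCI replicate 1 and FOD-CT replicate 1 the median was 0.12. Gfap then stood at 0.65 (SE 0.35, edgeR adjusted p = 0.891), with FOD-CCI libraries at 63.5 to 65.5 CPM and SOD-CCI libraries at 40.2 to 48.2. Ranges separated upwards in this way for 9.4% of genes. Cdh19 was lower in FOD-CCI, with a log2FC of −0.67 (SE 0.40) with all libraries and −0.40 (SE 0.27) without. edgeR called no gene in either fit (0% of 14484, 782 at an unadjusted p under 0.05, and 0% of 14688, 854 at that level), and none of the 8 genes had an unadjusted p under 0.05. DESeq2 called 2 genes with all libraries, neither of them among the 8.

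Whether injury acted differently under the diets was tested as an interaction. It was not called for any of the 8 genes or for any other gene by edgeR (0% with and 0% without the libraries with spinal cord transcripts, 725 and 727 genes at an unadjusted p under 0.05, and 0 of the 8), and DESeq2 called 42 genes, none of the 8. The Gfap interaction changed sign, from −2.50 (SE 1.502) to 0.76 (SE 0.52), when those libraries were left out, and Glul had the largest value without them, 0.90 (SE 0.46, edgeR adjusted p = 0.867). The SE of the interaction without those libraries was 0.39 to 0.78 over the 8 genes.

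The right DRG of the same CCI rat allowed a comparison within animals. In SOD-CCI rats Gfap was higher in the left than in the right DRG of all 3 rats, at 40.2 against 4.09, 41.3 against 22.1, and 48.2 against 15.3 CPM. The log2FC was 1.87 (SE 0.71, edgeR adjusted p = 0.496) in the model of all 6 rats, in which 19 of 14549 genes (0.131%) and none of the 8 were called. Without the FOD-CCI rat whose libraries carried spinal cord transcripts, the log2FC was 1.86 (SE 0.40, edgeR adjusted p = 0.0510), and Gfap was called along with 471 of 14992 genes (3.14%). DESeq2 with all 6 rats called 472 genes but not Gfap, and leaving out each rat in turn gave 1.23, without SOD-CCI replicate 1, to 2.42, without SOD-CCI replicate 2. Over all alternatives the adjusted p ran from 0.0510 to 1.00. The other 7 genes lay between −0.33 (Kcnj10, SE 0.23) and 0.29 (Cdh19, SE 0.20), and none was called.

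In FOD-CCI rats Gfap was higher on the left in 2 of 3 rats, at 65.5 against 20.5 and 64.9 against 12.1 CPM, and lower in the rat with spinal cord transcripts, at 320.3 against 965.4. The log2FC was 0.96 (SE 0.77) with that rat and 2.04 (SE 0.47, edgeR adjusted p = 0.140) without it. Over both diets Gfap was higher on the left in 5 of 6 rats and in 5 of 5 without that rat, by 1.87-fold to 9.83-fold, as were 11.6% of all genes, and no other gene of the 8 was higher on the left in all 5.

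Slc1a3 went the other way in FOD-CCI rats, at 139.1, 22.9, and 18.6 CPM on the left and 380.4, 36.0, and 43.7 on the right. It was lower on the left in 3 of 3 rats, a pattern shared with 11.7% of all genes. The log2FC was −1.10 (SE 0.21, edgeR adjusted p = 0.409) and only 2 of 14549 genes (0.0137%) were called. It was −0.95 (SE 0.26, edgeR adjusted p = 0.210) without the rat with spinal cord transcripts, when 137 of 14992 genes (0.914%) were called. DESeq2 called it (log2FC −1.10, adjusted p = 0.00416, with 264 or 1.81% of genes called), and so did edgeR without the filter on low counts (−1.06, an adjusted p just under 0.1, with 61 or 0.222% of genes called). Over all alternatives the adjusted p ran from 0.00416 to 1.00. In SOD-CCI rats the Slc1a3 log2FC was −0.14 (SE 0.21), and the difference between the diets was −0.96 (SE 0.30, edgeR adjusted p = 0.997).

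Sox2 was higher on the left in the FOD-CCI rats of replicates 2 and 3, at 32.7 against 19.0 and 31.4 against 19.3 CPM, and lower in replicate 1, at 54.4 against 94.6. Its log2FC was 0.25 (SE 0.31) with that rat and 0.74 (SE 0.25, edgeR adjusted p = 0.283) without it. Kcnj10 was lower on the left in 5 of 6 rats and was not called in either diet, at −0.33 (SE 0.23) in SOD-CCI and −0.44 (SE 0.22) in FOD-CCI rats. Without the rat with spinal cord transcripts Kcnj10 was at −0.42 (SE 0.27) in FOD-CCI rats. Glul, Gja1, Apoe, and Cdh19 differed by at most 0.41 on the log2 scale in either diet with all rats, and by at most 0.32 without that rat. In the test of a difference between diets edgeR called no gene with all 6 rats or with 5 (0% and 0%, 424 and 498 genes at an unadjusted p under 0.05), and DESeq2 called 60 genes with all 6 rats, none of the 8.

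**Figure D4:**
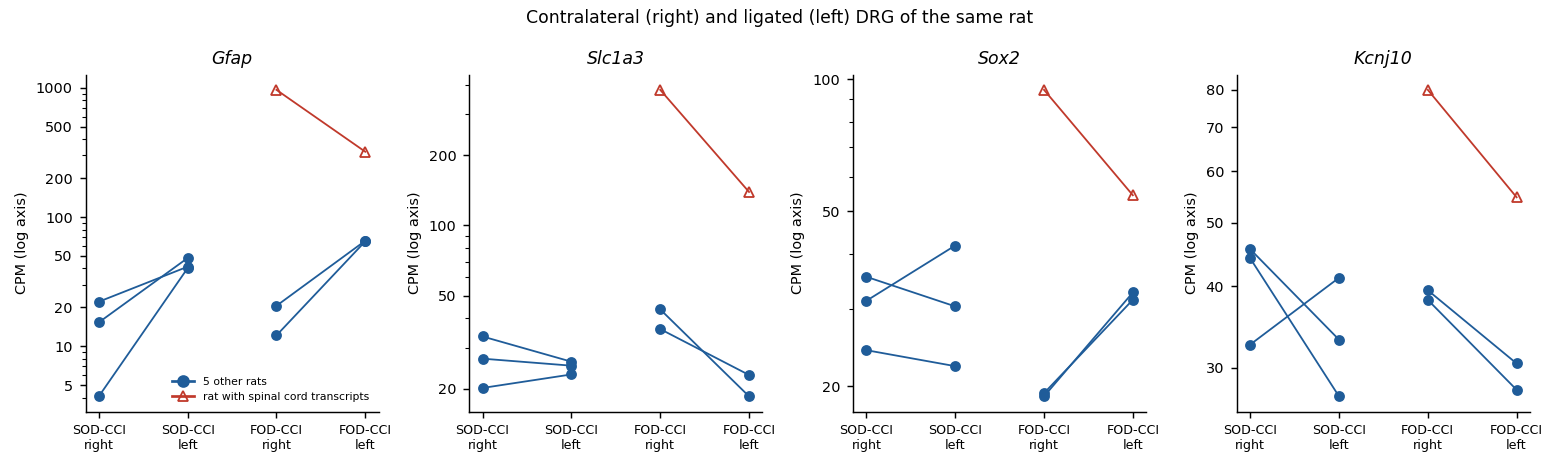
CPM (log axes) of Gfap, Slc1a3, Sox2, and Kcnj10 in the right and left DRG of each CCI rat, joined by a line per rat; circles are 5 rats and triangles the FOD-CCI rat with spinal cord transcripts. Gfap is higher on the left in the 5 rats, for example at 40.2 against 4.09 CPM, and Slc1a3 is lower on the left in the 3 FOD-CCI rats.

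Lists of genes with related roles were described beside the 8, by counts and medians and without a test of the list. Left DRG were compared with right DRG without the rat with spinal cord transcripts, and none of the list genes below was called with all libraries. Of 7 gap junction and pannexin genes, 7 had positive log2FC in SOD-CCI rats (median 1.12, beside 0.02 over all genes), and Panx1, a channel that releases ATP, rose by 1.12 (SE 0.18, edgeR adjusted p = 0.0183). The list shares Gjb6 with the spinal cord astrocyte genes. In FOD-CCI rats, of which only replicates 2 and 3 were left, 3 of the 7 were positive (median −0.24). There Gjb2, a connexin, fell by 2.98 (SE 0.57, edgeR adjusted p = 0.0780). Gjb2 was a low gene, with a median of 7.09 CPM over the 17 libraries (0.872 to 51.2). The medians of the 7 genes ran from 2.65 to 80.8 CPM. Of 8 lipoprotein and cholesterol genes, 6 were positive in SOD-CCI rats (median 0.21). There Abca1, the cholesterol exporter, rose by 1.80 (SE 0.36, edgeR adjusted p = 0.0387), and Apod, another apolipoprotein, by 1.21 (SE 0.22, adjusted p = 0.0298). Abca1 was also called in SOD-CCI against SOD-CT, at 2.22 (SE 0.43, edgeR adjusted p = 0.0803). Clu, which encodes clusterin, stood at 0.02 (SE 0.18) between the sides.

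Of 4 tested potassium and pump genes, 2 were positive in SOD-CCI rats (median 0.02), and Kcnk1, a potassium channel, fell by 0.85 (SE 0.19, edgeR adjusted p = 0.0613), while Atp1b2, the glial pump subunit, was at 0.69 (SE 0.19, adjusted p = 0.127). Of 6 SOX factors, 5 were positive (median 0.52), and Sox11, a factor known from regenerating neurons, rose by 3.43 (SE 0.53, edgeR adjusted p = 0.0149), whereas Sox10 was at 0.18 (SE 0.23). Sox11 was low, with a median of 4.47 CPM over the 17 libraries (0 to 45.5). The median of Sox10 was 134 CPM, and those of the SOX factors other than Sox10 ran from 1.43 to 4.58 CPM. Of 6 tested glutamate genes, 2 were positive (median −0.03) and none was called, with Glud1 at −0.32 (SE 0.17). The filaments Vim at 0.37 (SE 0.20) and Nes at 0.40 (SE 0.29) and the 6 cadherins and catenins (median 0.00) were not called. Against sham DRG, again without the libraries with spinal cord transcripts, all 4 potassium and pump genes were negative in SOD-CCI (median −0.54) and all 7 gap junction and pannexin genes positive in FOD-CCI (median 0.60), and none of them was called.

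A further 10 glia genes, among them S100b and Aldoc, were counted in the same way. In SOD-CCI rats 5 of 10 were positive between the sides (median 0.02), with S100b at −0.05 (SE 0.15) and Aldoc at −0.21 (SE 0.17), and none of the 10 was called in any comparison. Some macrophage genes were, like Gfap, higher on the left in SOD-CCI rats. The summed CPM of 6 macrophage genes was 132 to 213 in SOD-CCI, 22.5 to 60.3 in the right DRG of those rats, and 32.2 to 144 in SOD-CT. Of these genes Aif1 (log2FC 1.72, SE 0.28), Csf1r (2.31, SE 0.32), and C1qa (2.17, SE 0.25) rose on the left in SOD-CCI rats (edgeR adjusted p = 0.0172, 0.00921, and 0.00424). The other macrophage genes were not called there. With all libraries the sum was 125 to 461 CPM in FOD-CCI and 98.6 to 239 in contralateral FOD-CCI, ranges that overlap. The lowest FOD-CCI sum (125) and the highest contralateral sum (239) came from the libraries with spinal cord transcripts. The other contralateral sums were 98.6 and 157 CPM. Between the sides of FOD-CCI rats no macrophage gene was called. In FOD-CCI against FOD-CT, without replicate 1 of both, all 6 were positive (median 1.93) and none was called. The 8 Schwann cell genes had medians of 0.11 and −0.28 between the sides in SOD-CCI and FOD-CCI rats, and the 5 fibroblast genes 0.76 and −0.73, with none called. The part of these cells in the Gfap and Slc1a3 values was not tested.

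The 8 genes were also compared in pairs, and 21 of the 28 pairs had a Pearson r above 0 both over 20 libraries and over the 17. Over 20 libraries the pairs had a median Pearson r of 0.51 in log2 CPM, from −0.70 for Glul and Cdh19 to 0.95 for Gja1 and Slc1a3. Over the 17 libraries the median was 0.35, from −0.54 for Kcnj10 and Glul to 0.86 for Kcnj10 and Apoe. By ranks that last pair had a Spearman rho of 0.32, and Kcnj10 and Gja1 had an r of 0.85 and a rho of 0.36. The points share groups and depth, and SOD-CT replicate 1 was the lowest of the 17 for Kcnj10, Apoe, and Gja1. The genes most like each of the 8 were sought among 14434 others. Over 20 libraries Gfap was closest to Gna12, a gene without a symbol, and Cxcl14 (r = 0.94, 0.92, and 0.92), and Slc1a3 to Abhd3, Glud1, and Gja1 (r = 0.96, 0.95, and 0.95). Over 17 libraries Gfap was closest to Arid5a, Sapcd2, and Arpc1b (r = 0.90, 0.89, and 0.87), and Slc1a3 to Rbp4, Itm2c, and Igfbp2 (r = 0.89, 0.85, and 0.84). Kcnj10 over 17 libraries was closest to Elovl5, Psap, and Eml2 (r = 0.98, 0.97, and 0.97), Apoe to LOC102553126, Dennd2a, and Tceanc2 (r = 0.94, 0.93, and 0.91), and Cdh19 to Mtor, Pogk, and Chd1 (r = 0.91, 0.89, and 0.89). Gja1 was closest to a gene without a symbol, Fmo1, and Sncaip (r = 0.94, 0.93, and 0.93), Glul to Nit2, Net1, and Ctsc (r = 0.81, 0.80, and 0.79), and Sox2 to Pigv, Rbm42, and Micall2 (r = 0.79, 0.77, and 0.76). The lists over 20 and over 17 libraries had LOC102553126, for Apoe, as their only gene in common.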

How the data were processed

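Poly(A) RNA of 20 DRG libraries was sequenced in pairs, and the authors used fastp for trimming, HISAT2 for alignment, and featureCounts (1.5.0-p3) for counting. The deposited table holds whole counts per gene, and the deposited FPKM values were computed by the authors. They were used here to order genes by level, to choose named genes of the lists, and as a further scale for the levels of the 8 genes. No test used FPKM. The genome build, strand use, and treatment of multi-mapped reads are not given in the sources used here, so genes that share reads or overlap are uncertain. By the study's account 2 planned samples (1 SOD-CCI and 1 FOD-CT) were left out before library preparation.

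Counts were tested in R 4.3.3 with edgeR 4.0.16 (TMM, two-sided quasi-likelihood F test, Benjamini-Hochberg adjustment) on genes with at least 10 counts in 90% of libraries, and a gene was called where the adjusted p was no higher than 0.1 with a 1.2-fold or larger change. A model of the 14 left libraries had a mean per group. A model of the 12 libraries of 6 CCI rats with both sides had the rat as a block, since both DRG come from 1 animal, and left out FOD-CCI replicate 4. Both sides of a rat deviated together in 6 of 6 rats (correlation 0.113 to 0.430). SE is the absolute log2FC divided by the square root of F. Contralateral groups were not tested against sham or between diets.

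Alternatives were DESeq2 1.42.0, its size factors, no filter, a gene length offset, the replicate block added or removed, each library or rat left out, and the libraries with spinal cord transcripts left out. The removal of the muscle-rich library was chosen after seeing the data. The scripts were tested on counts simulated with a smaller spread than these data (common dispersion 0.206 in the left model and 0.140 in the model of both sides). The simulated counts had no differences between rats. That test checks the code and not how well changes are found in these data. The 8 genes, the other lists, and the alternatives were chosen with earlier results of these data known. Named genes are the 8, up to 3 genes of highest FPKM per other list, and list genes that were called. Also named are marker genes that describe the libraries with spinal cord transcripts, and the 3 genes most like each of the 8.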

Additional observations from a re-analysis of the deposited data

Results flagged for a closer look

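In FOD-CCI, replicate 1 stood far above the other 3 libraries for 4 of the 8 genes. Kcnj10 was at 54.7 CPM with the nearest library at 31.3, Gja1 at 319 with the nearest at 76.8, Slc1a3 at 139 with the nearest at 37.2, and Gfap at 320 with the nearest at 65.5. The gap made up 0.867, 0.883, 0.845, and 0.992 of the group's range, each above Dixon's 95% critical value for 4 libraries. These are 4 of 16 tests of groups of 4 libraries, and all 4 flags come from 1 library. The tests are not independent, so their number cannot be set against the 1 in 20 that chance gives for a single test. The same library held 1532 CPM of spinal cord astrocyte genes, and the part of that tissue in the 4 values was not tested.

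The difference between left and right DRG differed between the diets for Slc1a3 by −0.96 on the log2 scale with an unadjusted edgeR p under 0.05. It failed the correction over all genes (adjusted p = 0.997). Slc1a3 was lower on the left in 3 of 3 FOD-CCI rats and in 2 of 3 SOD-CCI rats, and without the rat with spinal cord transcripts the difference was −0.81 (edgeR adjusted p = 0.999).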

How the results depend on the processing

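Values are log2FC unless named otherwise. Of 64 values each (8 genes in 8 comparisons), DESeq2's size factors kept the direction and the side of the threshold in 64, DESeq2 in 63, a gene length offset in 62, no filter in 62, and leaving out the libraries with spinal cord transcripts in 52. DESeq2 and the fit with no filter each called 1 of the 8 genes, Slc1a3, in FOD-CCI against contralateral. With no filter Apoe there was 0.0235, and with the length offset it was 0.0148 there and −0.0596 in FOD-CCI against SOD-CCI.

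Without the spinal cord libraries, FOD-CCI against FOD-CT turned to 0.29 (Gja1), 0.0231 (Apoe), 0.25 (Sox2), and 1.72 (Gfap). Kcnj10 turned to −0.12 in FOD-CCI against SOD-CCI, Glul to −0.56 and Gfap to −0.11 in FOD-CT against SOD-CT, the interaction to 0.14 (Slc1a3) and 0.76 (Gfap), and the side difference between diets to 0.18 (Gfap) and 0.0371 (Cdh19). In SOD-CCI against contralateral 1 gene (Gfap) was then called. With SOD-CT replicate 1 also left out, 1 gene (Gfap) was called in FOD-CCI against FOD-CT, where Gja1 was 0.28, Apoe 0.0167, Sox2 0.25, and Gfap 1.72. Kcnj10 was −0.11 in FOD-CCI against SOD-CCI. FOD-CT against SOD-CT gave −0.27 (Glul), −0.0572 (Gja1), −0.12 (Slc1a3), and −0.14 (Gfap), and the interaction 0.15 (Gja1), 0.27 (Slc1a3), 0.80 (Gfap), and 0.0315 (Cdh19). The cause was not tested.

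The replicate block in the left model changed no call. It turned Cdh19 in FOD-CCI against FOD-CT to −0.00914 and moved Gfap there from −1.54 to −0.47. Same-numbered libraries correlated at 0.43, 0.24, and 0.19 between FOD-CT and FOD-CCI and at 0.07, 0.08, and −0.08 between SOD-CT and SOD-CCI, and the labels give no reason for a pairing of left libraries. With no replicate block in the model of both sides, no gene of the 8 was called. Sox2 was then 0.00496 in SOD-CCI and −0.11 in FOD-CCI against contralateral, Gfap −1.07 in FOD-CCI, and the side difference −0.11 (Sox2) and 0.0215 (Cdh19).

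Leaving out 1 library or rat at a time kept 661 of 704 values, reversed 42, and called 1. The number of the 8 genes called ran from 0 to 1 in SOD-CCI against contralateral. The ranges with reversals were, in FOD-CCI against FOD-CT, −0.43 to 0.20 (Kcnj10), −0.50 to 1.05 (Glul), −1.61 to 1.42 (Gja1), −0.10 to 0.15 (Apoe), −2.05 to 0.91 (Slc1a3), −0.69 to 0.51 (Sox2), −2.52 to 2.71 (Gfap), and −0.0923 to 0.56 (Cdh19). In FOD-CCI against SOD-CCI they were −0.12 to 0.34 (Kcnj10) and −0.0126 to 0.19 (Apoe). In FOD-CT against SOD-CT they were −0.56 to 0.74 (Glul) and −0.11 to 4.70 (Gfap). For the interaction they were −0.0868 to 1.46 (Glul), −1.99 to 1.03 (Gja1), −1.76 to 1.19 (Slc1a3), −3.49 to 1.74 (Gfap), and −0.47 to 0.19 (Cdh19). In SOD-CCI against contralateral they were −0.00167 to 0.25 (Gja1), −0.10 to 0.36 (Apoe), and −0.22 to 0.10 (Sox2). In FOD-CCI against contralateral they were −0.28 to 0.0449 (Glul), −0.12 to 0.0707 (Apoe), −0.0330 to 0.74 (Sox2), and −0.00616 to 0.33 (Cdh19). For the side difference they were −0.28 to 0.19 (Kcnj10), −0.37 to 0.0860 (Apoe), −0.00549 to 0.77 (Sox2), −1.79 to 0.18 (Gfap), and −0.30 to 0.0921 (Cdh19).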
